A study of Mus musculus with 8 samples.

Results

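Regulatory T cells (Tregs) act on their neighbours partly through products that they secrete or hold at the surface, and 10 genes for such products were followed among the 20172 genes with a value in the series: Il10, Ebi3, Il12a, Tgfb1, Lrrc32, Fgl2, Gzmb, Areg, Penk and Ifng. They were chosen by name, as cytokines and other mediators of suppression or tissue repair, with earlier results of these data known, and all 10 had a value. RNA came from Tregs of the spleens of Foxp3 YFP-cre mice, sorted into cells with TNFR2 at the surface (TNFR2+, 4 libraries) and cells without it (TNFR2-, 4 libraries). In these mice a fusion of yellow fluorescent protein and Cre is expressed from the Foxp3 locus, so both populations carry the allele, and the labels give no treatment. The study used adult mice of both sexes, which are not given per library, and the labels do not say whether replicates came from separate mice. If they did not, the p-values measure technical spread only. The comparison asks which of these products differ in RNA level between Tregs sorted with and without TNFR2, a receptor of TNF, at the surface.

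The 10 products work at different points. Interleukin-10 (Il10) is a secreted cytokine that restrains myeloid cells and T cells, and EBI3 pairs with the p35 chain encoded by Il12a to form interleukin-35, or with another chain to form interleukin-27. Transforming growth factor beta 1 (Tgfb1) is made in a latent form that GARP (Lrrc32) anchors on the Treg surface and that integrins release, while FGL2 (Fgl2) is a fibrinogen-like protein that binds inhibitory Fc receptors and granzyme B (Gzmb) is a serine protease delivered to target cells from granules. Amphiregulin (Areg) is a growth factor of the epidermal growth factor family with a role in tissue repair, proenkephalin (Penk) is the precursor of opioid peptides, and interferon gamma (Ifng) is the inflammatory cytokine of type 1 immunity, which some Tregs also make.

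Penk is shown first by its coding sequence, because the RNA with the largest difference among the 10 genes encodes several copies of one short peptide. In the GENCODE annotation of GRCm38 the gene lies at chr4:4133531-4138819 on the minus strand, and its coding sequence of 807 bases (268 residues) holds 6 stretches for Met-enkephalin and 1 for Leu-enkephalin, each of 15 bases. They are given in order from the start codon, with the enkephalin codons in capitals and the neighbouring codons in lower case.
Penk copy 1, Met-enkephalin: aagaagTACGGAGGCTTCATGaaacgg
Penk copy 2, Met-enkephalin: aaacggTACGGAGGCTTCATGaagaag
Penk copy 3, Met-enkephalin: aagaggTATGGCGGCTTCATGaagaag
Penk copy 4, Met-enkephalin: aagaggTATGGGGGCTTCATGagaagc
Penk copy 5, Met-enkephalin: aagcgcTACGGGGGCTTCATGagaagg
Penk copy 6, Leu-enkephalin: aagaggTATGGGGGCTTCCTGaagcgc
Penk copy 7, Met-enkephalin: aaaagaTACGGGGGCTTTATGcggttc
In 5 of the 7 copies the peptide is flanked on both sides by pairs of basic codons (lysine or arginine), the signal at which prohormone convertases cut. Copies 4 and 7 lack the pair that follows. The 7 copies use 6 different stretches of 15 bases, so the repeats are not identical in sequence.

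The promoters of 2 mediators whose RNA differed are shown for the known motifs that they hold near the start. RefSeq (GRCm38.p6) windows of 250 bases before the annotated start were read for 7 of the 10 genes, namely Ebi3, Il12a, Tgfb1, Fgl2, Gzmb, Areg and Ifng, and 8 motifs were searched on both strands: AP-1 (TGANTCA), CRE (TGACGTCA), E-box (CACGTG), NF-kB (the usual 10-letter consensus), STAT (TTCNNNGAA), TATA box (TATAAA), T-box (TCACACCT) and Ets (CCGGAAG). The 2 windows printed are on the plus strand, with motif matches in capitals.
Areg, chr5:91139349-91139598: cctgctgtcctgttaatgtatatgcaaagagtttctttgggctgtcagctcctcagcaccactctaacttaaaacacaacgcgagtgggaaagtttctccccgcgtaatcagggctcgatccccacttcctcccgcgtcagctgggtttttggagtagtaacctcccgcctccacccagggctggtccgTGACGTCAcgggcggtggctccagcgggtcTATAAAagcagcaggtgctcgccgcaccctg
Ebi3, chr17:55952373-55952622: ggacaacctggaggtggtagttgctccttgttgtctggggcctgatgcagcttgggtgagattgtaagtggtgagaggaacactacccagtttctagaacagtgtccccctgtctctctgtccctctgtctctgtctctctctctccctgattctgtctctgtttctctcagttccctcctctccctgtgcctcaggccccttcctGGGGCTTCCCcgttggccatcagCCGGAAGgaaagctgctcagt
The Areg window holds a CRE between 61 and 54 bases before the start, a motif in 1.55% of the 32851 mouse windows of this length, and a TATA box between 31 and 26 bases before it, in 12.4% of windows. The Ebi3 window holds an Ets motif 21 to 15 bases before the start (6.91% of windows) and an NF-kB motif 44 to 35 bases before it (7.25%). In the Tgfb1 window, with 75.2% G and C, the only match was an NF-kB motif 140 to 131 bases before the start. A narrower form of the NF-kB motif was searched first and matched none of the 7 genes, and the wider one was taken afterwards. These matches describe the letters only.

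All 8 libraries had the RNA of Tregs. Foxp3, the lineage-defining transcription factor, stood at 3126 ± 219 normalized counts (mean ± SD, n = 4) in TNFR2+ and 3664 ± 316 in TNFR2- Tregs, and Tnfrsf1b, which encodes TNFR2, ranged from 1840 to 3148 against 1177 to 1563. The deposited values are counts scaled for library size by the authors, and they summed to 9576920 to 11492800 per library, with estimated depths of 9100000 to 12110000 reads. A gene was tested with limma on log2(normalized count + 1) where its mean over the 8 libraries was at least 10, and called at a Benjamini-Hochberg adjusted p under 0.05 over the 13990 genes tested. Of these, 633 were higher and 474 lower in TNFR2+ Tregs, which is 7.91% in all. With every library rescaled to the same sum the split was 904 higher and 309 lower. The median log2 fold change of all genes then moved from -0.01 to 0.12. Foxp3 did not pass the threshold (log2 fold change -0.23, limma adjusted p = 0.232). Of the 11 Treg markers tested, Foxp3 and Tnfrsf1b among them, 7 were higher and none lower, beside 4.52% and 3.39% of all tested genes. Without the intensity trend 2 were called. Fold changes were above 0 in 9 markers and below 0 in 2. For Foxp3 protein, the study reported more in TNFR2+ than in TNFR2- Tregs, by flow cytometry in another reporter line.

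Among the 10 mediators, 8 passed the filter on low values and 5 of these 8 were higher in TNFR2+ Tregs: Penk, Il10, Ebi3, Areg and Tgfb1. The share of all tested genes called higher was 4.52%, which also stands beside the counts for the related lists below. The 10 genes and the lists were chosen with earlier results of these data known, so these counts are descriptions. None of the 8 was called lower (3.39% of all genes), and Lrrc32, Fgl2 and Ifng did not pass the threshold. Gzmb and Il12a lay under the filter. In 5 of the 8 (Penk, Il10, Ebi3, Tgfb1 and Lrrc32) every TNFR2+ library was above every TNFR2- library, against 8.08% of all tested genes, and in none was the reverse seen (7.29% of all genes). The median log2 fold change of the 8 was 1.10, beside -0.01 over all genes tested. In RNA of whole populations, fewer cells that express a gene and less RNA per cell cannot be told apart.

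**Figure D1:**
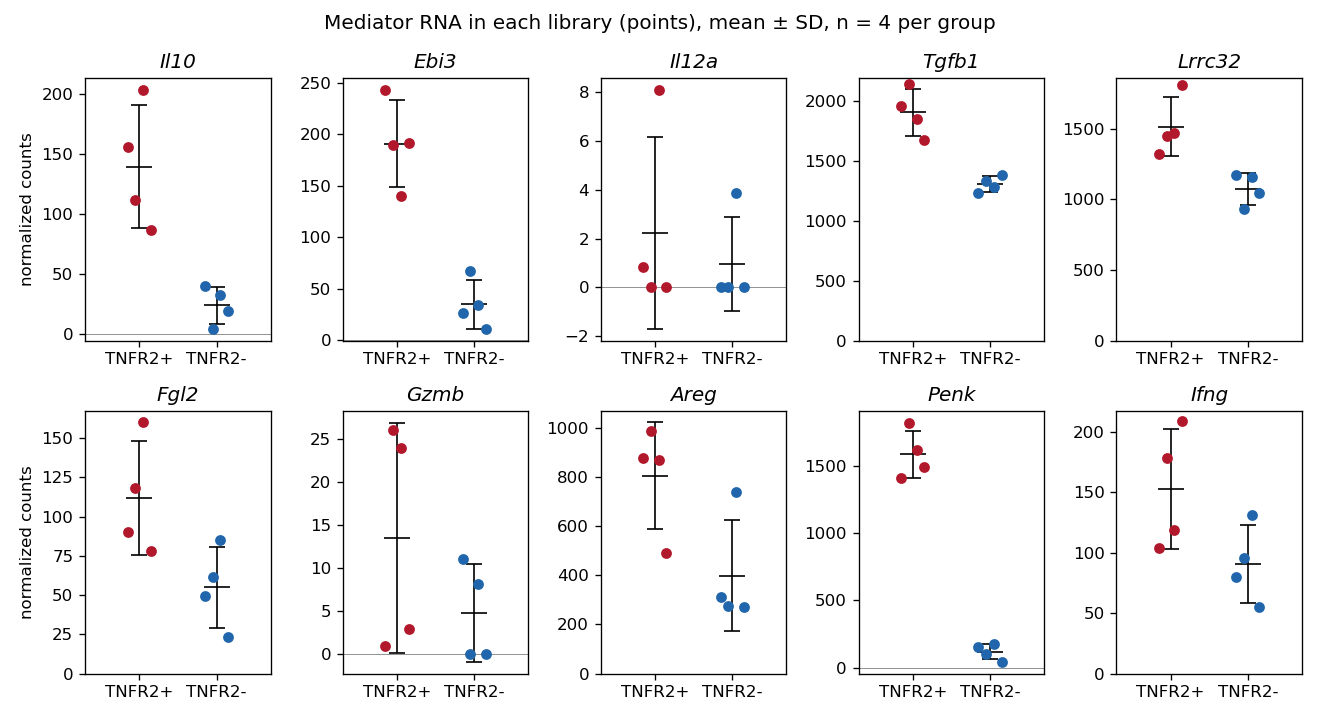
Normalized counts (vertical axis, linear, a separate scale per gene) of the 10 mediators in each of the 4 TNFR2+ (red) and 4 TNFR2- (blue) libraries, with the mean and SD of each group in black. The groups are separate for Il10, Ebi3, Tgfb1, Lrrc32 and Penk and overlap for the other genes, and Il12a and Gzmb stay near 0.

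Il10 was present at low to moderate levels and was several times higher in TNFR2+ Tregs. The 4 TNFR2+ libraries held 156, 112, 203 and 86.3 normalized counts (replicates 1 to 4) and the 4 TNFR2- libraries 39.3, 4.16, 32.5 and 18.5. The lowest TNFR2+ library was thus above the highest TNFR2- library, with means of 139 ± 51.2 and 23.6 ± 15.6 (SD, n = 4) and a ratio of 5.89. The log2 fold change was 2.79 (SE 0.60, 95% interval 1.50 to 4.09, limma adjusted p = 0.0121), and it stayed past the threshold whichever single library was left out, at 2.16 (without TNFR2- replicate 2, the lowest library) to 3.15. Without the intensity trend in the variances the adjusted p was 0.0608. These are RNA values. For the protein, the study reported less in TNFR2+ than in TNFR2- Tregs. It was measured by intracellular staining after restimulation with PMA and ionomycin, in Tregs of a Foxp3 reporter line with green fluorescent protein. For the RNA libraries, of the YFP-cre line, the labels give no treatment. The reason for the opposite directions was not tested.

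Ebi3, the shared subunit of interleukin-35 and interleukin-27, behaved alike in size. Its normalized counts were 243, 189.9, 139.5 and 191 in TNFR2+ libraries and 26.6, 66.9, 33.8 and 11.1 in TNFR2- libraries. The groups did not overlap, and the means of 191 ± 42.1 and 34.6 ± 23.6 differed 5.52-fold. This gave a log2 fold change of 2.66 (SE 0.47, 95% interval 1.65 to 3.67, limma adjusted p = 0.00398), past the threshold in every alternative fit.

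Il12a, the partner of EBI3 in interleukin-35, was close to undetected. It was listed at 0 in 5 of the 8 libraries and at 0.841 and 8.08 in TNFR2+ replicates 1 and 3 and 3.86 in TNFR2- replicate 3. With a mean of 1.60 it was not tested across genes, and an exact permutation test of the groups gave p = 0.714 (two-sided, n = 4 per group). A difference in Il12a was therefore not detectable at this depth. Of the other subunits of the family, Il12b, Il23a and Il27 were not analysed here.

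B cells and myeloid cells can also make Il10 and Ebi3, so their marker genes were read in the same libraries. The summed level of the 13 B cell markers with a value (of 15) was 4151 to 6164 normalized counts in TNFR2+ and 2046 to 3060 in TNFR2- libraries. Ighm made up most of it, with means of 4608 ± 883 and 1911 ± 391 (log2 fold change 1.27, limma adjusted p = 0.000745), and was the only one of the 9 tested that was called. Of these 9, 5 had fold changes above 0 and 4 below. Cd22, an inhibitory receptor of B cells, stood at 309 ± 35.6 and 150.5 ± 70.6 without overlap (limma adjusted p = 0.0612), and Ighd had a log2 fold change of 1.37 (limma adjusted p = 0.162). Cd79a, a defining component of the B cell receptor, was under the filter, at 0 to 2.90 and 0 to 6.10. The summed level of the 11 myeloid and dendritic cell markers with a value (of 20) was 479 to 859 and 476 to 949, with Csf1r at 0 in all TNFR2+ libraries. Of the 7 tested, 2 had fold changes above 0 and 5 below. Xcr1 was called lower (limma adjusted p = 0.0498), a call that held in 1 of the 8 fits without 1 library, and Cebpa stood at 353 ± 108 and 156 ± 130 (log2 fold change 1.50, limma adjusted p = 0.0768). The 6 plasma cell markers (of 10) summed to 247 to 560 and 176 to 611, with none of 4 called. The part of these cells in the Il10 and Ebi3 values was not tested.

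Tgfb1 was abundant in both populations and modestly higher in TNFR2+ Tregs. The TNFR2+ libraries held 1963, 2145, 1849 and 1674 normalized counts and the TNFR2- libraries 1233, 1334, 1279 and 1386. These ranges did not overlap, and the replicates were tight, with means of 1908 ± 198 and 1308 ± 66.1 and a ratio of 1.46. On the log2 scale the fold change was 0.54 (SE 0.12, 95% interval 0.28 to 0.80, limma adjusted p = 0.0157). The call was lost without TNFR2+ replicate 2 (0.48, adjusted p = 0.0658) and without the intensity trend (adjusted p = 0.0854).

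Lrrc32, which encodes the protein that holds latent TGF-beta on the Treg surface, lay at the threshold. Its normalized counts were 1322, 1447, 1469 and 1810.4 in TNFR2+ and 1173, 928, 1154 and 1043 in TNFR2- libraries. Every TNFR2+ library was above every TNFR2- library, with means of 1512 ± 209 and 1075 ± 113. The log2 fold change of 0.49 (SE 0.14, 95% interval 0.19 to 0.79) had a limma adjusted p of 0.0511, and the exact permutation test gave p = 0.0286, the smallest that 4 libraries against 4 allow. It passed the threshold with a pseudocount of 5, a minimum mean of 50, equal library sums or without TNFR2- replicate 3, where the value was 0.53 (adjusted p = 0.0486). Per kilobase of the longest annotated transcript, Tgfb1 stood at 2.29 ± 0.47 times the level of Lrrc32 in TNFR2+ and 2.19 ± 0.32 times in TNFR2- Tregs (exact permutation p = 0.857, two-sided, n = 4 per group).

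Of 8 tested genes that make, bind or release TGF-beta, Tgfb1 and Lrrc32 left out, 2 were higher, none was lower and 6 did not pass the threshold (median log2 fold change 0.82). Both that rose are chains of the integrin that frees TGF-beta from its latent complex. Itgav held 3523 ± 388 normalized counts in TNFR2+ and 1540 ± 487 in TNFR2- Tregs (log2 fold change 1.26, SE 0.22, limma adjusted p = 0.00339). Itgb8 held 821 ± 169.5 and 302 ± 177 (1.60, SE 0.34, limma adjusted p = 0.0111). Both were past the threshold whichever library was left out, and neither was without the intensity trend (adjusted p of 0.0549 and 0.0815).

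Fgl2 was expressed at about the level of Il10 in normalized counts, but its groups overlapped. The TNFR2+ libraries held 90.2, 118, 160.3 and 78.4 and the TNFR2- libraries 49.5, 61.8, 85.0 and 23.4, so that TNFR2- replicate 3 was above TNFR2+ replicate 4. Its log2 fold change of 1.10 (95% interval 0.18 to 2.01) had a limma adjusted p of 0.136 and an exact permutation p of 0.0571. The gene lies inside Ccdc146, which runs on the opposite strand and stood at 0 to 36.5 normalized counts.

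Gzmb was near the detection limit. The TNFR2+ libraries held 0.997, 26.1, 23.9 and 2.88 normalized counts and the TNFR2- libraries 11.1, 0, 8.18 and 0. The values were scattered in both groups, with a mean of 9.14 over the 8 libraries, and were not tested across genes (exact permutation p = 0.400, two-sided, n = 4 per group). Among 14 other tested genes of cytotoxic granules and their release, 4 were higher, none was lower and 10 did not pass the threshold, with a median log2 fold change of 0.24.

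The largest of these 4 was Nkg7, a granule membrane protein, at 54.1, 49.2, 92.3 and 61.7 normalized counts in TNFR2+ and 2.03, 4.14, 6.78 and 18.4 in TNFR2- libraries (log2 fold change 3.19, SE 0.65, limma adjusted p = 0.00927). Stx11, a syntaxin of granule fusion, rose by 2.03 (SE 0.36, limma adjusted p = 0.00402, or 0.0549 without the intensity trend). Serpinb6b and Srgn, a protease inhibitor and the granule proteoglycan, were called at 1.19 and 0.56, but past the threshold in only 3 and 2 of the 8 fits that left out 1 library (limma adjusted p up to 0.0771 and 0.136). Perforin (Prf1), through which granzymes enter target cells, held 6.92 ± 3.91 and 23.4 ± 18.2 normalized counts and did not pass the threshold. The summed level of the 7 cytotoxic lymphocyte markers with a value (of 12) was 142 to 212 in TNFR2+ and 105 to 170.0 in TNFR2- libraries, with Nkg7 the only one of 4 tested that was called. The part of such cells in these values was not tested.

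Areg was higher on average in TNFR2+ Tregs, and its call depended on which libraries were kept. The TNFR2+ libraries held 876, 989, 870.3 and 489 normalized counts and the TNFR2- libraries 311, 275, 737 and 269. The groups overlapped, since TNFR2- replicate 3 stood above TNFR2+ replicate 4, and the means of 806 ± 218 and 398 ± 227 differed 2.03-fold. The log2 fold change was 1.11 (SE 0.31, 95% interval 0.43 to 1.79, limma adjusted p = 0.0477) and the exact permutation test gave p = 0.0571. Leaving out 1 library gave 0.97 to 1.45, with an adjusted p from 0.00237 to 0.135. The call held without TNFR2+ replicate 4 or TNFR2- replicate 3, the 2 libraries that overlap, and was lost without any of the other 6.

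None of the 7 other tested genes of the epidermal growth factor family and its shedding was called in either direction (median log2 fold change 0.26). Adam17, the protease that frees amphiregulin from the membrane, was at 616 ± 100.3 and 616 ± 177 normalized counts (log2 fold change 0.03, limma adjusted p = 0.953), and Rhbdf2, which brings Adam17 to the surface, was at 180.1 ± 77.7 and 141 ± 38.3. Of the 7, 5 had fold changes above 0 and 2 below. The largest was that of Rhbdf1, a relative of Rhbdf2, at 65.9 ± 53.3 and 12.4 ± 11.3 (2.46, limma adjusted p = 0.0944).

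Penk showed the largest difference of the 10 genes. The TNFR2+ libraries held 1413, 1819, 1622 and 1496 normalized counts and the TNFR2- libraries 150.0, 102, 174 and 43.9. The lowest TNFR2+ library was far above the highest TNFR2- library, and the means of 1587 ± 177 and 117 ± 57.3 differed 13.5-fold. Its log2 fold change was 3.91 (SE 0.34, 95% interval 3.18 to 4.64, limma adjusted p = 7.57e-05), above that of 99.8% of all tested genes or equal to it. It lay between 3.50 and 4.16 when 1 library was left out and was past the threshold in all fits.

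The listed genes that turn proenkephalin into enkephalins were low or without a call in these libraries. Of 5 tested genes of neuropeptide precursors and their processing, none was called in either direction (median log2 fold change -0.47). Their fold changes were above 0 in 2 and below 0 in 3. In other fits 1 was called higher, with the replicate block or without TNFR2- replicate 1, and 1 lower, without TNFR2+ replicate 4. The largest rise was in Cpd, another carboxypeptidase, at 707 ± 406 and 322 ± 183 normalized counts (1.17, limma adjusted p = 0.105). Cpe, the carboxypeptidase that trims the basic residues after cleavage, was at 8.71 ± 10.7 and 11.3 ± 7.09 normalized counts. The convertase Pcsk2 was at 7.18 ± 12.4 and 28.0 ± 19.6 (limma adjusted p = 0.124). Also tested and not called were Pam, at 165 ± 45.9 and 141 ± 63.2, and Ctsl, at 38.1 ± 23.2 and 56.1 ± 17.9. Pcsk1, the other prohormone convertase of neuroendocrine cells, lay under the filter, at 0.963 to 8.69 in TNFR2+ libraries and 0 in all TNFR2- libraries.

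Ifng, the inflammatory member of the set, was detected in every library. The TNFR2+ libraries held 104, 178, 119 and 209 normalized counts and the TNFR2- libraries 79.9, 95.6, 131 and 55.0. The ranges overlapped, with means of 152 ± 49.6 and 90.5 ± 32.0. The log2 fold change of 0.76 (95% interval 0.02 to 1.50) had a limma adjusted p of 0.207 and an exact permutation p of 0.114. For the protein, stained after restimulation in the same experiment as interleukin-10, the study reported no significant difference. The ratio of Il10 to Ifng per kilobase was 0.98 ± 0.59 in TNFR2+ and 0.26 ± 0.17 in TNFR2- Tregs (exact permutation p = 0.0571, two-sided, n = 4 per group).

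**Figure D2:**
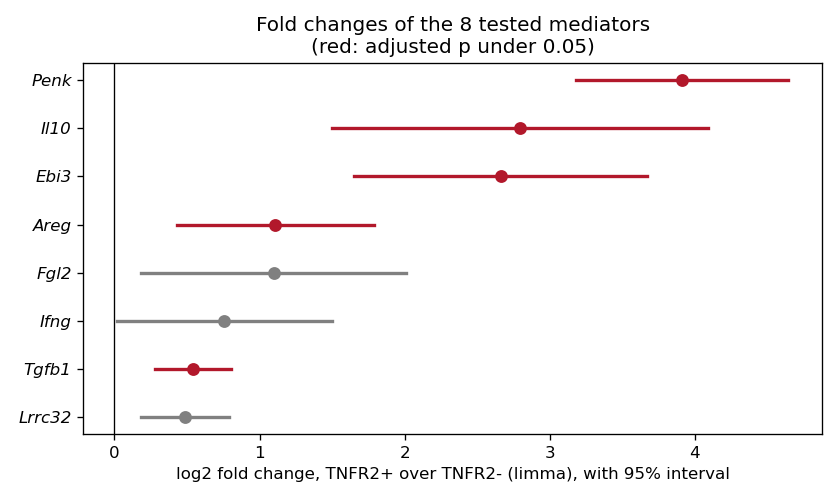
Log2 fold changes of the 8 tested mediators, TNFR2+ over TNFR2- Tregs, with 95% intervals from limma (n = 4 per group); red marks an adjusted p under 0.05. All 8 points lie above 0, from 0.49 for Lrrc32 to 3.91 for Penk, with wider intervals for the less abundant genes Il10 and Ebi3 than for Tgfb1 and Lrrc32.

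The mediators were then ordered by level within each population. Per kilobase of the longest annotated transcript, TNFR2+ Tregs had most Penk (1096 ± 122 normalized counts per kilobase), followed by Tgfb1 (741 ± 77.0), Areg (663 ± 180), Lrrc32 (330 ± 45.7), Ebi3 (165 ± 36.5), Ifng (126 ± 41.0), Il10 (106 ± 39.1), Fgl2 (29.5 ± 9.62), Gzmb (9.38 ± 9.30) and Il12a (1.71 ± 3.01). Neighbours whose libraries overlapped were Tgfb1 and Areg, Ebi3 and Ifng, Ifng and Il10, and Gzmb and Il12a. In TNFR2- Tregs, Tgfb1 came first (508 ± 25.7), then Areg (328 ± 187), Lrrc32 (235 ± 24.8), Penk (81.0 ± 39.5), Ifng (74.9 ± 26.5), Ebi3 (30.0 ± 20.4), Il10 (18.0 ± 11.9), Fgl2 (14.5 ± 6.77), Gzmb (3.35 ± 3.96) and Il12a (0.741 ± 1.48). Here only Lrrc32 and Penk were neighbours without overlap. Penk thus ranked 4 in TNFR2- and 1 in TNFR2+ Tregs.

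**Figure D3:**
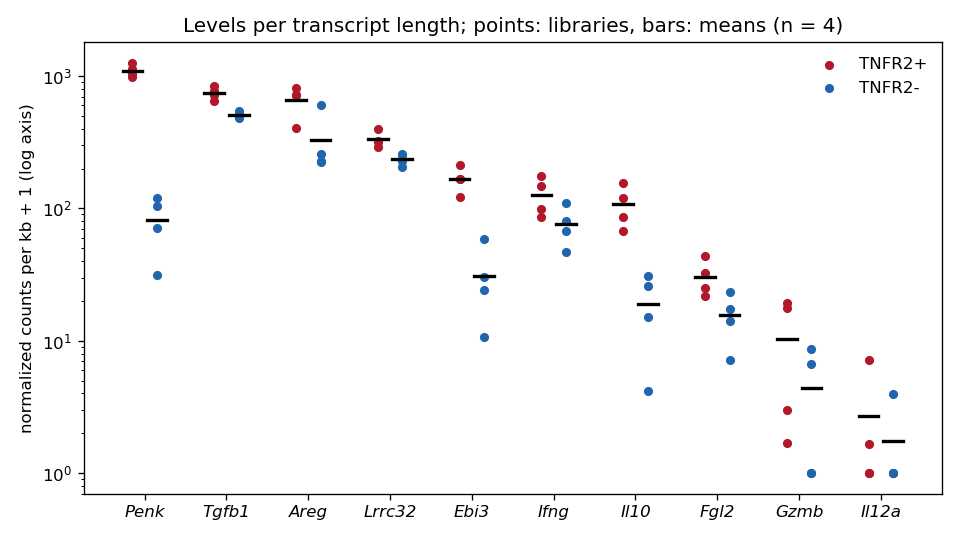
Normalized counts per kilobase of the longest annotated transcript plus 1 (log axis) in each library (points) and their means (bars, n = 4), for TNFR2+ (red) and TNFR2- (blue) Tregs, in order of the TNFR2+ mean. Penk is highest in TNFR2+ Tregs at 1096 and below Tgfb1, Areg and Lrrc32 in TNFR2- Tregs at 81.0, and points at 1 are libraries listed at 0.

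Libraries of a group differed in the same direction for several mediators. TNFR2- replicate 3 was the highest of its group for 4 of the 8 tested mediators, with a median deviation of 0.67 (log2) from the group mean, and TNFR2- replicate 4 the lowest for 5, with -0.53. Their Tnfrsf1b values were 1177 and 1277 normalized counts, within 1177 to 1563 for the group. Among TNFR2+ libraries the medians lay between -0.13 and 0.16.

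**Figure D4:**
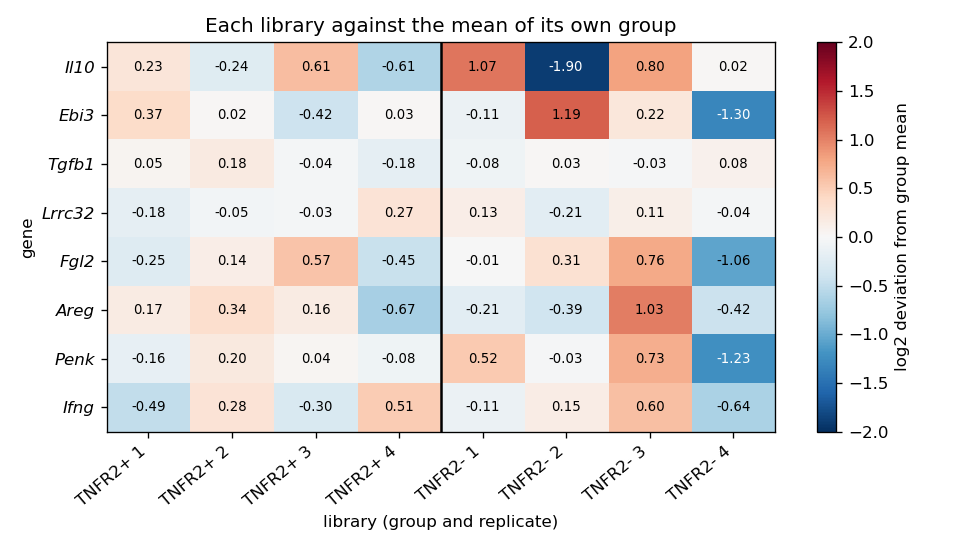
Deviation of each library from the mean of its own group (log2, colour and number) for the 8 tested mediators. TNFR2- replicates 3 and 4 deviate most often in opposite directions, and Tgfb1 and Lrrc32 vary least.

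The receptors of the mediators were mostly without a call. Of 13 tested receptor genes, none was higher, 2 were lower and 11 did not pass the threshold (median log2 fold change 0.03). Ifngr2, the signalling chain of the interferon gamma receptor, held 172, 218, 263 and 297 normalized counts in TNFR2+ and 461, 561, 472 and 628 in TNFR2- libraries. The groups were separate, and the log2 fold change was -1.17 (SE 0.21, limma adjusted p = 0.00444), past the threshold whichever library was left out. Its partner Ifngr1 had -0.55 (limma adjusted p = 0.0591). Tgfbr2, the chain that binds TGF-beta, was at 1784, 1867, 1869.9 and 1935 against 2655, 2672, 2142 and 2768. These did not overlap either (-0.45, SE 0.12, limma adjusted p = 0.0320), but the call was lost without any library except TNFR2- replicate 3 (adjusted p up to 0.0889), with equal library sums (0.0906) and without the intensity trend (0.133).

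The signalling chains of the other receptors did not pass the threshold. Il10ra, which binds interleukin-10, had a log2 fold change of 0.41 (limma adjusted p = 0.143), and Il10rb one of 0.38. Il6st, Il12rb2 and Il27ra, receptor chains for interleukin-35 or interleukin-27, had -0.37, 0.32 and 0.03, and Il12rb1, a related receptor chain, had 0.40. Tgfbr1 and Tgfbr3 had 0.18 and -0.72, Erbb3, of the EGF receptor family, had 0.34, and Fcgr2b, an inhibitory Fc receptor bound by FGL2, had -1.26 (limma adjusted p = 0.125). Egfr, the receptor of amphiregulin, averaged 4.66 and 4.49 normalized counts and Oprm1, an opioid receptor, 3.63 and 0.869. Both were under the filter.

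Of 11 tested transcription factors known to act on Il10, 8 were higher, 1 was lower and 2 did not pass the threshold (median log2 fold change 0.99). Over all tested genes 4.52% were called higher and 3.39% lower, and this list was chosen with earlier results of these data known. Without the intensity trend 4 of the 11 were called, all higher. Leaving out 1 library gave 6 to 10 called, with 6 without TNFR2+ replicate 2 or 3 or TNFR2- replicate 2. The largest changes were in Bhlhe40, a repressor of Il10 in helper T cells, at 2.05 (SE 0.29, limma adjusted p = 0.00113), and in Nfil3, an activator, at 1.59 (SE 0.22, limma adjusted p = 0.001). Prdm1, which encodes Blimp-1, rose by 1.53 (SE 0.37, limma adjusted p = 0.0210) and Batf by 1.30 (SE 0.23, limma adjusted p = 0.00411). Prdm1 was past the threshold in only 3 of 8 fits without 1 library, with an adjusted p up to 0.0725, and the other 3 in all 8. The lower gene was Ikzf1, which encodes Ikaros, at -0.80 (limma adjusted p = 0.00838), named here after its value was seen.

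Of 10 tested genes that act on Ifng or mark the type 1 cells that make it, 1 was higher, 1 was lower and 8 did not pass (median 0.20). Cxcr3, a chemokine receptor of type 1 cells, rose by 1.44 (SE 0.23, limma adjusted p = 0.00191). Irf1, an interferon-induced factor, fell by 0.57 (limma adjusted p = 0.0194), without a call when TNFR2- replicate 2 was left out (0.0663), with equal library sums (0.0549) or without the intensity trend (0.113). Tbx21, the lineage factor of type 1 cells, was at 238 ± 58.5 and 95.7 ± 68.1 normalized counts (limma adjusted p = 0.0832).

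Other secreted products of T cells gave few calls. Of 12 tested cytokine genes, 2 were higher and none was lower: Csf1, a macrophage growth factor (log2 fold change 1.23, limma adjusted p = 0.0282), and Tnfsf11, which encodes RANKL (1.09, limma adjusted p = 0.00909). Csf1 was past the threshold in 3 of the 8 fits without 1 library (adjusted p up to 0.0898) and Tnfsf11 in all 8. Of 16 other tested repair and growth factors, 3 were higher, none was lower and 13 did not pass (median 0.73).

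These 3 were Vegfc, a lymphatic growth factor at 31.3 ± 13.8 and 1.13 ± 1.63 normalized counts (log2 fold change 4.11, limma adjusted p = 0.0164), Nampt, an enzyme of NAD synthesis (0.74, limma adjusted p = 0.00300), and Lgals1, which encodes galectin-1 (1.25, limma adjusted p = 0.0439). The fold change of Vegfc depended on the pseudocount, from 2.52 at 5 to 4.73 at 0.5, since it was near 0 in TNFR2- libraries. It lost its call without TNFR2+ replicate 2, 3 or 4 (adjusted p up to 0.0824). Lgals1 was past the threshold in 3 of 8 such fits, with an adjusted p up to 0.127.

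**Figure D5:**
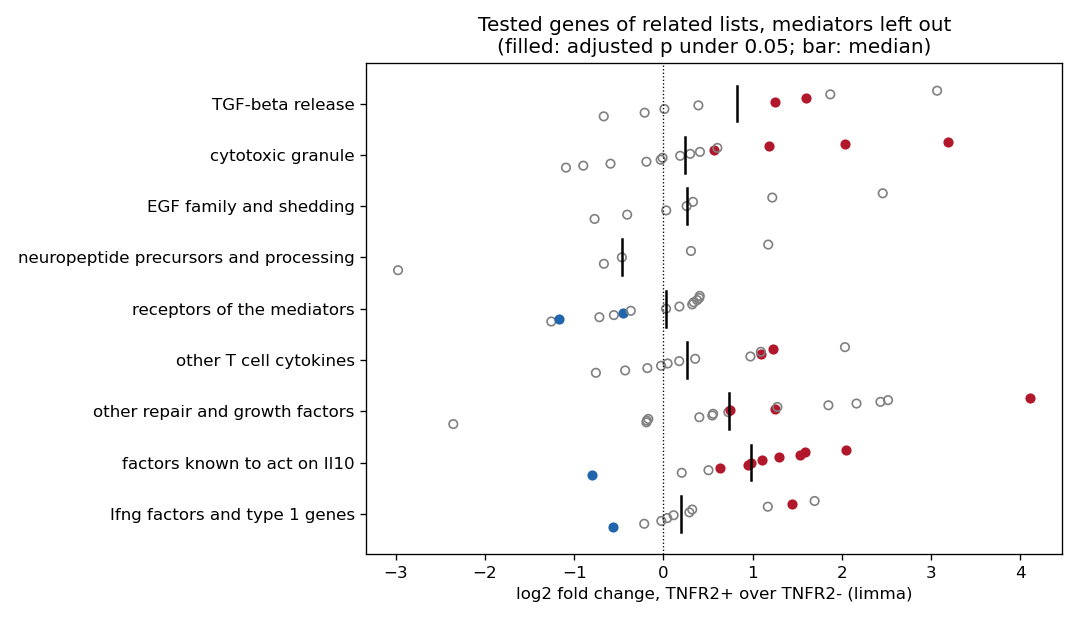
Log2 fold changes (TNFR2+ over TNFR2- Tregs, limma) of the tested genes in 9 lists around the mediators, with the mediators left out; filled points have an adjusted p under 0.05 and black bars are list medians. The list of factors known to act on Il10 holds 9 called genes of 11, and the receptor list holds 2, both below 0.

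The 3 genes most like each called mediator over the 8 libraries were found by Pearson's r of log2 values among 10205 tested genes with a mean of at least 50. These are descriptions, since the 8 libraries fall into 2 groups and any gene that separates them scores high. For Penk they were Gm3411 (r = 0.993), Cd74 (0.991) and Rel (0.989). For Il10 they were Hps6 (0.995), Plekha2 (0.991) and Axl (0.991), and for Ebi3 Kif14 (0.971), Gm3512 (0.969) and Pik3ap1 (0.965). For Tgfb1 they were Sik3 (0.992), Hsp90b1 (0.981) and Gapdh (0.979), and for Areg Anxa2 (0.974), Polk (0.973) and Bub3 (0.971).

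In the same annotation, Il10 lies at chr1:131019845-131024974, Ebi3 at chr17:55952640-55957022, Tgfb1 at chr7:25687002-25705077, Lrrc32 at chr7:98489283-98502181, Fgl2 at chr5:21372642-21378374, Areg at chr5:91139599-91148432, Ifng at chr10:118441046-118445892 and Il12a at chr3:68690644-68698547, all on the plus strand. Gzmb lies at chr14:56258838-56262260 on the minus strand. None of the 10 had a near-identical annotated copy that could share its reads. The longest match listed was Gzmc, 81.1% identical to Gzmb over 679 bases, and genes that overlap Ebi3, Penk and Ifng shared 158, 157 and 188 bases with them. Ebi3, Fgl2 and Penk overlap a gene on the opposite strand, and Ifng overlaps Gm49751 on its own strand. The gene overlapping Penk, A830012C17Rik, stood at 0 to 11.6 normalized counts.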

How the data were processed

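RNA of 4 TNFR2+ and 4 TNFR2- Treg libraries was compared. The authors prepared stranded total RNA libraries, checked reads with FastQC 0.11.8, trimmed them with Trim Galore, quantified transcripts of Ensembl GRCm38 with Salmon 1.3.0 and scaled the resulting gene counts in DESeq2 1.28 (R 4.0). The deposited values are this normalized signal per gene, not read counts, so no count model was fitted; the strand setting is not given in the sources used here. Symbols and coordinates came from GENCODE (20008 of 20172 identifiers matched). In 69.7% to 96.5% of low values of 2806 single-transcript genes the signal lay near whole multiples of 1 step, which gave the depths. Root-mean-square differences between replicates were 5.52 to 9.95 times the counting noise.

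limma 3.58.1 in R 4.3.3 was fitted with an intensity trend and no block to all genes with a mean of at least 10, pseudocount 1, and exact two-sided permutation tests used all 70 relabellings. The fit was tested on simulated data. Copies were searched with blastn 2.17.0 (95% identity over 50% of the transcript), and plots used matplotlib 3.10.9 in python 3.11.15. The 10 mediators, the lists and the tests were chosen with earlier results of these data known. Named genes are all mediators, up to 4 called genes per list by size of change, the receptor genes, and the 3 genes most like each called mediator. Other genes named beside a result were chosen after their values were seen. They were Ikzf1, Foxp3, Prf1, Adam17, Rhbdf1, Rhbdf2, Cpd, Cpe, Pcsk1, Pcsk2, Pam, Ctsl, Tbx21 and markers of other cells. Alternatives were pseudocounts of 0.5 and 5, no minimum mean or one of 50, no trend, equal sums, equal upper quartiles, the replicate block and leaving out each library.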

Additional observations from a re-analysis of the deposited data

Results flagged for a closer look

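Areg in TNFR2- replicate 3 stood apart from its group, at 737 normalized counts beside 269 to 311 in the other 3 libraries. On the log2 scale the gap to the nearest library was 0.855 of the range of the group, beyond Dixon's limit for 4 samples. It was the only such library among the 16 groups of 4 looked at, and chance alone flags about 1 in 20 groups. Without it the log2 fold change of Areg was 1.45 (limma adjusted p = 0.00237).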

How the results depend on the processing

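All 8 tested mediators kept their direction in every fit. Without the intensity trend 283 genes were higher and 182 lower, and 2 mediators were called, Penk and Ebi3: Il10 (2.79), Tgfb1 (0.54) and Areg (1.11) had adjusted p of 0.0608, 0.0854 and 0.154. Equal library sums gave 309 lower genes. Lrrc32 passed with a pseudocount of 5 (0.49), a minimum mean of 50 (0.49) and equal sums (0.62). Leaving out 1 library gave 339 to 777 higher and 279 to 547 lower genes and 3 to 6 mediators called. Log2 fold changes in these fits ran from 0.48 to 0.60 for Tgfb1, 0.40 to 0.55 for Lrrc32 and 0.97 to 1.45 for Areg. The fewest mediators, 3, were called without TNFR2+ replicate 2, and 4 without TNFR2+ replicate 1 or 3 or TNFR2- replicate 1, 2 or 4. Among the single genes that were refitted, Il12rb2, Il27ra and Adam17 changed sign, all near 0. Il12rb2 ran from -0.031 (without TNFR2- replicate 2) to 0.53, Il27ra from -0.020 to 0.12, below 0 without TNFR2+ replicate 2 (-0.0033) or TNFR2- replicate 1 (-0.014) or 3, and Adam17 from -0.097 to 0.18, below 0 without TNFR2+ replicate 1 (-0.061) or TNFR2- replicate 1 or 3 (-0.077). The cause of these changes was not tested. Same-numbered libraries did not deviate together (correlations of their deviations -0.04 to 0.00054), which cannot tell whether they came from the same mice. The fit with the replicate block called 675 higher and 508 lower genes and 5 mediators. Low levels limit Gzmb and Il12a.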
